A study of Mus musculus with 4 samples.

Results

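Chromatin loops at 9 genes of Notch signalling were examined in mouse granulosa cells before and after an ovulatory stimulus. The genes were the receptors Notch1, Notch2 and Notch3, the ligands Jag1 and Jag2, and the target genes Hes1, Hey1, Hey2 and Heyl. A loop was counted at a gene when one of its 2 anchors lay within 10 kb of the gene body, or when the loop spanned less than 500 kb and enclosed the gene. By this rule 26 of 12942 distinct loops lay at the 9 genes, with 62 calls over the 4 libraries, and each of the 9 genes had at least 1 loop, as did 68% of the 21627 protein-coding genes.

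Loops had been mapped by Micro-C, which cuts chromatin with micrococcal nuclease, joins ends that lie close together and sequences them. The hCG group was collected 6 h after 5 IU of human chorionic gonadotropin (hCG), which acts on the receptor of luteinizing hormone, and that dose followed 5 IU of equine chorionic gonadotropin (eCG, also named PMSG). The PMSG group received the same 5 IU of eCG and is labelled as 0 h after hCG. All mice were 21 days old, and no strain, genotype or pooling of animals is given in the labels. Cells came from punctured ovaries, and each group had 2 libraries, and as the labels do not say that these came from different animals, their spread may be technical only. The time on eCG is given as 46 h in one label and as 44 h in another.

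Notch signalling passes between touching cells. A Jagged or Delta-like ligand on one cell binds a Notch receptor on its neighbour, the receptor is cut, and its intracellular part enters the nucleus and joins the DNA-binding protein RBPJ. The complex switches on genes of the HES and HEY families, which encode basic helix-loop-helix repressors. In the mouse ovary, granulosa cells carry NOTCH2 and oocytes and granulosa cells make Jagged ligands, while other Notch receptors and ligands are known for their part in blood vessels.

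The lists held 7664 and 7935 loops in hCG replicates 1 and 2, against 8305 and 6533 loops in PMSG replicates 1 and 2, with 272470 to 393852 contacts at the called pixels of a library. The contacts expected at the 435 pixels that all lists share were 0.592 and 0.744 in the hCG libraries and 0.623 in PMSG replicate 2, relative to PMSG replicate 1, so PMSG replicate 1 was the deepest. Loops carry no expression level, and the labelled cell type was not checked by them. A loop was found at 14 of 14 granulosa marker genes, at 12 of 14 endothelial, 11 of 12 theca, stroma and smooth muscle, 5 of 8 leukocyte and 6 of 8 oocyte markers, beside the 68% of all genes. The endothelial list had 1.70 and 1.64 loops per 1000 in the hCG libraries, against 2.17 and 1.53 in the PMSG libraries, and the oocyte list 1.04 and 0.630, against 0.843 and 0.918. These overlapped between the groups. The leukocyte list was higher in both hCG libraries, with 0.652 and 0.504 per 1000 loops, against 0.361 and 0.459 in the PMSG libraries, on 3 to 5 loops a library. The theca, stroma and smooth muscle list was lower in both, with 3.00 and 3.15, against 3.37 and 3.37, as was the granulosa list, with 4.57 and 4.66, against 5.42 and 5.20. How often gene lists separate in this way between 2 and 2 libraries was not computed. The part of other cell types in the loops below was not tested.

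Of the 9 genes, 6 are in the RefSeq promoter table of build GRCm38.p6, the assembly of mm10. Hes1, Hey1 and Heyl are not in it, so their promoters were not searched. The whole body of Hes1 lay inside a loop anchor in all 4 libraries. The starts of Jag1 and of Hey2 lay inside a loop anchor in all 4 libraries, and that of Notch1 in PMSG replicate 1 alone, while those of Notch2, Notch3 and Jag2 lay in no anchor. The 250 bases before the start are shown for the pair of these 6 that was anchored throughout, Hey2 at chr10:30842784-30843033 and Jag1 at chr2:137116521-137116770, both on the minus strand. Capitals mark the RBPJ motif CGTGGGAA, searched on both strands and found on the opposite one here.
Hey2: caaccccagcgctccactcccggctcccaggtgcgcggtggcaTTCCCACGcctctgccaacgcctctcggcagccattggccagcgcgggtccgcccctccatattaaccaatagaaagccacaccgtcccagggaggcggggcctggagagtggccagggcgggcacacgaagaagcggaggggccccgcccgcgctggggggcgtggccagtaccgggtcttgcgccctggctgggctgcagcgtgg
Jag1: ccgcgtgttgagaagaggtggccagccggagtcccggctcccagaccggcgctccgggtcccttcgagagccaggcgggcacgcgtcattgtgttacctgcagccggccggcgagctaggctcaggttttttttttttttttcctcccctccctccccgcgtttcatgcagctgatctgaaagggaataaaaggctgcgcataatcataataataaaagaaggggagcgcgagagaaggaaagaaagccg
The match in the Hey2 sequence began 207 bases before the gene's start. It was the only match among the 6 genes, and 0.666% of 27025 promoters of that length held this motif. Its 6-letter core TGGGAA, which lies within the longer motif, occurred in 21.5% of promoters and likewise only in that of Hey2 among the 6. The E-box CACGTG, to which HEY proteins can bind, was in none of the 6 and in 6.05% of all promoters. These matches describe letters only and show no binding.

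The first comparison asked whether hCG was followed by other loops at the Notch genes. A distinct loop is a set of calls from different lists whose anchor midpoints both lie within 20 kb. It is named gained when both hCG lists and neither PMSG list held it, lost in the reverse case and common when all 4 lists held it. At the 9 genes 5 loops were gained, 1 was lost, 9 were common and 11 followed another pattern. Gained loops lay at Jag1, Jag2, Hes1 and Notch2, with 2 of them at Hes1, and the lost loop enclosed Notch2. These were 4 of 9 genes with a gained loop, where 9.79% of the 14714 protein-coding genes with any loop had one, and 1 of 9 with a lost loop, where 7.93% of those genes had one. A common loop was found at 6 of 9 genes, against 53.7% of all genes with a loop, and 9 of 26 loops were common, against 29.8% of all distinct loops. Among marker genes with a loop, gained loops were at 4 of 14 granulosa, 2 of 11 theca, stroma and smooth muscle and 2 of 12 endothelial genes, and lost loops at 5 of 14, 5 of 11 and 2 of 12. Over loops, 5 of 26 were gained where 5.05% of all distinct loops were, and 1 of 26 was lost where 3.79% were. Genes with more loops more often have a gained one, which was so for 4.21% of genes with 1 distinct loop, 6.75% with 2, 12.5% with 3 and 23.8% with 5. Jag2, Jag1, Notch2 and Hes1 had 1, 2, 3 and 5. Without PMSG replicate 2 the count of lost loops was 6, at Hes1, Hey2, Notch1, Notch2 and Notch3, since loops called in PMSG replicate 1 alone then count as lost. No test was run on these counts, since the genes were chosen with earlier results of the data known.

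The gained loops rested largely on wide bins. Of the 5, 4 had a call in 25 kb bins, and all 4 had one in hCG replicate 1, whereas 45.6% of all 653 gained loops had a 25 kb call. In hCG replicate 1, 47.4% of the calls at Notch genes were in 25 kb bins, against 29.7% of all its calls. The other libraries had smaller shares at Notch genes than over all calls, with 25% against 27.8% in hCG replicate 2, 18.75% against 25.2% in PMSG replicate 1 and 27.3% against 34.9% in PMSG replicate 2. With only 5 and 10 kb bins, 1 gained loop was left, that of Jag2, and 2 were lost, at Notch2 and Hey2. A loop missing from a list did not pass the caller's thresholds there, and its contacts were not analysed here. The part of bin size in the difference was not tested.

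**Figure D1:**
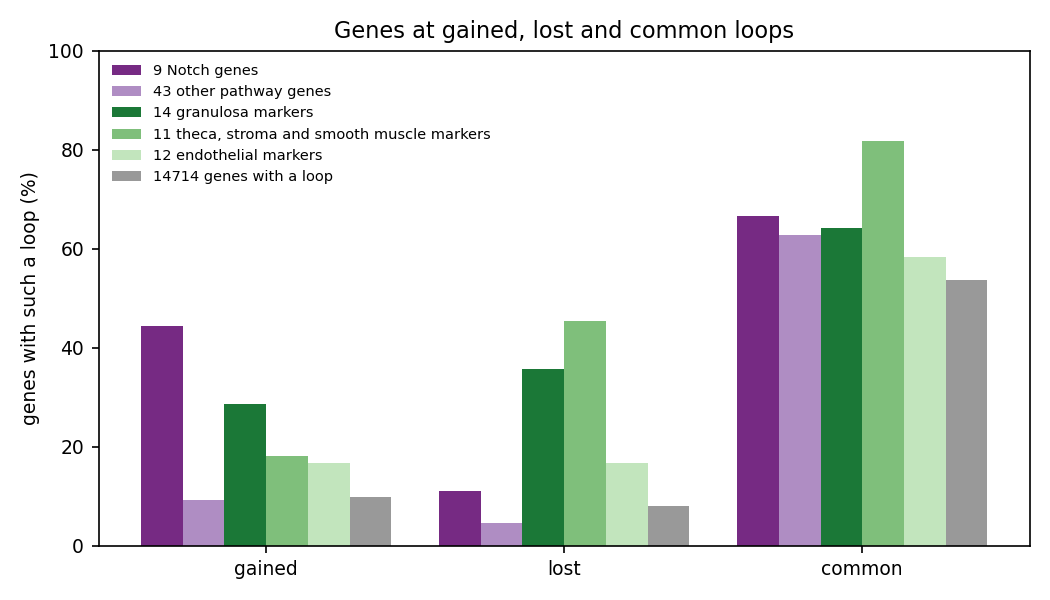
Share of genes (percent, from 0) with at least 1 gained, lost or common loop, for the 9 Notch genes, the 43 other Notch pathway genes that had a loop, 3 lists of marker genes, and all 14714 protein-coding genes that had one. Gained loops were at 44.4% of the Notch genes, 28.6% of the granulosa, 18.2% of the theca, stroma and smooth muscle and 16.7% of the endothelial markers, 9.30% of the other pathway genes and 9.79% of all genes.

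Counted per library, the 9 genes had 19 and 16 loops in the hCG libraries, against 16 and 11 in the PMSG libraries. Relative to list length this was 2.48 and 2.02 per 1000 loops after hCG, against 1.93 and 1.68 before it. The group means were 2.25 ± 0.327 in hCG and 1.81 ± 0.172 in PMSG (SD, n = 2 each), a difference of 0.44 per 1000. The libraries did not overlap, but the lowest hCG value and the highest PMSG value lay close together. This rested on the 10 kb rule, which left out a call of PMSG replicate 1 that lay 12.2 kb from Hes1. That call belongs to a common loop, and with it PMSG replicate 1 would lie above hCG replicate 2, so that the groups would overlap. The difference was -0.011 per 1000 when 25 kb bins were left out. It was 0.211 without hCG replicate 1 and 0.674 without hCG replicate 2. An exact permutation test of 2 against 2 libraries, two-sided, could not have gone below 0.33, and none was run on this sum. Jag1, Jag2 and Hes1 had more loops in both hCG libraries than in either PMSG library, as did 7.63% of all genes with a loop. No Notch gene had fewer in both, against 5.86% of genes.

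**Figure D2:**
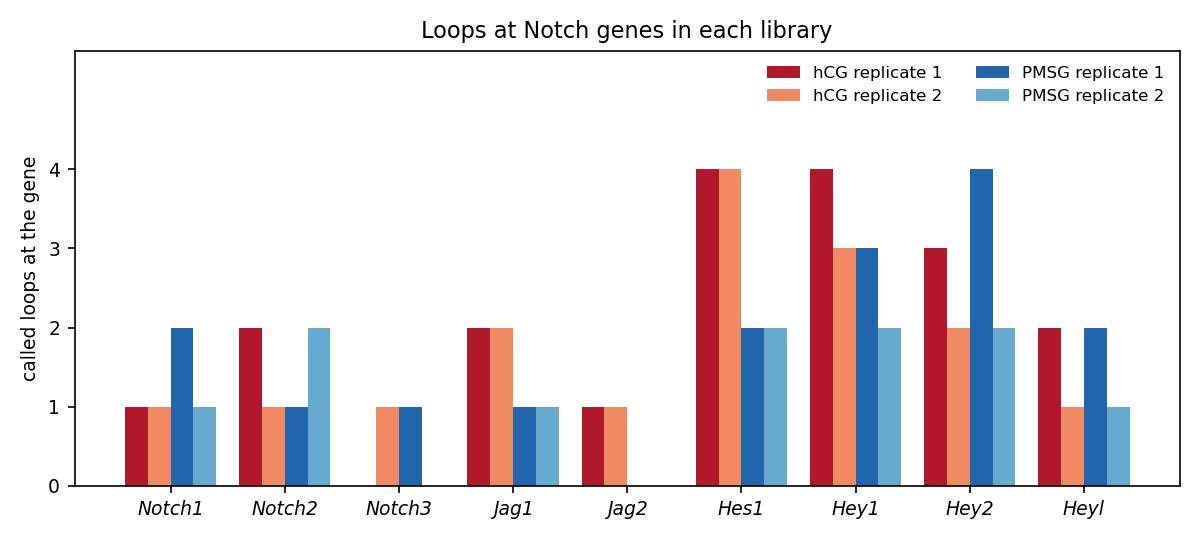
Number of called loops at each Notch gene in the 2 hCG and the 2 PMSG libraries, 1 bar for each library and no bar where the count was 0. Hes1 had 4 loops in each hCG library and 2 in each PMSG library, and Jag2 had loops in the hCG libraries only. A further call of PMSG replicate 1, 12.2 kb from Hes1 and outside the 10 kb rule, is not in its bar.

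Among the receptors, Notch2, the receptor best known from granulosa cells, had 1 gained and 1 lost loop, which ran from the same left-hand region to different right-hand anchors. The gene lies at 98013538 to 98150367 on chromosome 3. In both hCG libraries a gained loop joined the region of Sec22b, a vesicle SNARE gene, to the body of Notch2. In hCG replicate 1 it was called with 25 kb bins, at chr3:97900001-97925000 with chr3:98100001-98125000, and had 143 contacts against 54.2 expected. In hCG replicate 2 it was called with 10 kb bins, at chr3:97920001-97930000 with chr3:98100001-98110000, and had 44 against 13.5. In both PMSG libraries a lost loop of 300 kb ran from the same left anchor, chr3:97920001-97930000, past the whole of Notch2 to an end of Reg4, a secreted lectin gene, at chr3:98220001-98230000. That loop had 38 and 29 contacts in the PMSG libraries against 9.52 and 5.55 expected. The gained loop thus ended inside Notch2 and the lost loop beyond it. The nearest call of an hCG list to the lost loop was the gained loop itself, 112.5 and 120 kb away at the more distant anchor. A further loop, of 100 kb and into the 5′ part of the gene, was called in 1 library of each group, with 180 contacts against 72.2 expected in hCG replicate 1 and 120 against 60.5 in PMSG replicate 2. A PMSG list thus also held a loop that ended inside Notch2, and this call was the nearest of PMSG replicate 2 to the gained loop, 67.5 kb away at the more distant anchor, while that of PMSG replicate 1 was 110 kb away. The gained loop left its class when all 4 FDR values of a call had to be at or below 0.01, with matching within 10 kb and without 25 kb bins. Of the settings tried with all 4 libraries, the lost loop dropped out only where enclosing loops were not counted.

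Notch1, on chromosome 2 from 26457902 to 26503822 on the minus strand, had 1 loop that counted as common to all 4 libraries. It joined the flank beyond the 3′ end of the gene, near Sec16a, to an anchor 110 to 120 kb away in the direction of Egfl7, an endothelial gene whose body lay 18.6 kb further on. It had 25 and 27 contacts in the hCG libraries against 3.16 and 4.23 expected. The PMSG libraries had 46 and 20 contacts against 6.19 and 2.34 expected. All 4 pixels were thus enriched to a like degree, from 6.38 to 8.55 times the expectation, and the groups overlapped. The common class of this loop depended on the matching rule. Both hCG lists placed its anchor near the gene at chr2:26450001-26455000, and both PMSG lists in the adjacent bin, chr2:26445001-26450000. With matching by overlap of anchors, the hCG calls counted as a gained loop. A loop of 50 kb from the start of Notch1 was called in PMSG replicate 1 alone, with 68 contacts against 33.4 expected.

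Notch3, a receptor known chiefly from vascular smooth muscle, had no loop shared by 2 libraries. Its gene lies at 32120820 to 32166896 on chromosome 17. A loop of 175 kb enclosed it in hCG replicate 2, with 86 contacts against 35.5 expected, and one of 300 kb with its anchor in the gene was called in PMSG replicate 1, with 73 against 37.2. Both were calls in 25 kb bins.

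Both ligand genes had a gained loop. Jag1, the Jagged ligand most studied in the follicle, lies on chromosome 2 from 137081451 to 137116520. All 4 libraries had a loop from its start to an anchor about 620 kb away, in a region whose nearest gene, Btbd3, was 519 kb further on. That loop had 63 and 64 contacts in the hCG libraries against 19.6 and 24.8 expected, in 25 kb bins. PMSG replicate 2 had 60 against 23.1 in the same bin, and PMSG replicate 1 had 30 against 6.20 in a 10 kb bin. In the shared 25 kb pixel the hCG libraries had 3.22 and 2.58 times the expectation, and PMSG replicate 2, at 2.60 times, lay between them. In both hCG libraries the same anchor also met an anchor on the other side, inside Slx4ip, 200 kb away (chr2:136900001-136925000 with chr2:137100001-137125000). This gained loop had 70 and 80 contacts against 30.1 and 32.2 expected, or 2.33 and 2.48 times, with exact 95% Poisson intervals of 1.82 to 2.94 and 1.97 to 3.09 that cover counting error only. Listed pixels had already passed the caller's thresholds, so intervals above the expectation were fixed in advance. The nearest PMSG calls were 425 and 400 kb away at the more distant anchor. The loop left the gained class in lists of equal length and without 25 kb bins.

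Jag2, the second Jagged ligand gene, had loops in the hCG lists only. The gene lies at 112907803 to 112929812 on chromosome 12. In hCG replicate 1 a loop of 80 kb from the region of Gpr132, a G protein-coupled receptor gene, to an end of Brf1 enclosed it, with 29 contacts against 8.24 expected. In hCG replicate 2 a loop of 60 kb from the same left anchor, chr12:112870001-112880000, ended at chr12:112930001-112940000 beside the ends of Jag2 and Nudt14, with 34 against 12.8. Neither PMSG list had a call with an anchor at that left position, and the nearest PMSG loops were 327.5 and 150 kb away. The 2 hCG calls met the matching rule exactly at its limit of 20 kb. They no longer counted as 1 loop with matching within 10 kb or by overlap of anchors, and with anchor loops only the call of hCG replicate 1, which encloses the gene, was not counted.

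Hes1 was the target gene with the most loops over the 2 hCG lists, at 8. It encodes a repressor that is the best known target of Notch, and it lies at 30065357 to 30067796 on chromosome 16. It had 4 loops in each hCG library, against 2 in each PMSG library, where a further call of PMSG replicate 1, 12.2 kb from Hes1, was not counted. A loop to an anchor 330 to 335 kb away at lower coordinates, 70.6 kb from the mitochondrial fusion gene Opa1, was common. It had 18 and 13 contacts in the hCG libraries against 1.95 and 2.03 expected, and 20 and 23 contacts in the PMSG libraries against 3.44 and 4.97 expected. The last of these was called in a 10 kb bin, the other 3 in 5 kb bins. The call of hCG replicate 2 was weak, with a largest FDR of 0.094, where the largest of any loop was 0.0994.

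Inside that span, 2 further anchors met Hes1 in each hCG list, and no PMSG list held these loops. In hCG replicate 1 both were called with 25 kb bins, from the Hes1 anchor chr16:30050001-30075000. The one 225 kb away (chr16:29825001-29850000) had 108 contacts against 41.4 expected there, and the one 125 kb away (chr16:29925001-29950000) had 95 against 48.6. In hCG replicate 2 both were called with 10 kb bins, from chr16:30060001-30070000. The one 220 kb away (chr16:29840001-29850000) had 31 contacts against 9.26 expected there, and the one 120 kb away (chr16:29940001-29950000) had 33 against 9.41. Neither far anchor had an annotated gene end within 2.5 kb, and neither PMSG list had any call with an anchor within 20 kb of them. An anchor with no PMSG call within 20 kb was common among gained loops, at 4 of the 5 at Notch genes and 72.6% of all 653. The nearest PMSG calls to these loops were 100 to 142.5 kb away at the more distant anchor. Both left the gained class without 25 kb bins, and the shorter one also in lists of equal length.

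On the other side of Hes1, a loop to an anchor 100 to 120 kb away counted as common, but its Hes1 end differed. Both hCG lists placed that end on Hes1, where hCG replicate 1 had 34 contacts against 8.73 expected (10 kb bins) and hCG replicate 2 had 20 against 3.17 (5 kb bins). PMSG replicate 2 placed it at chr16:30075001-30100000, with 92 against 45.8 expected. PMSG replicate 1 placed it at chr16:30080001-30090000, with 58 against 22.2, which was 12.2 kb from Hes1 and outside the 10 kb rule. With matching within 10 kb or by overlap of anchors, the PMSG calls became a lost loop of 100 kb and the hCG calls a gained loop of 120 kb. A loop of 440 kb to an anchor inside Opa1 was called in PMSG replicate 1 alone, with 22 contacts against 5.08 expected.

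**Figure D3:**
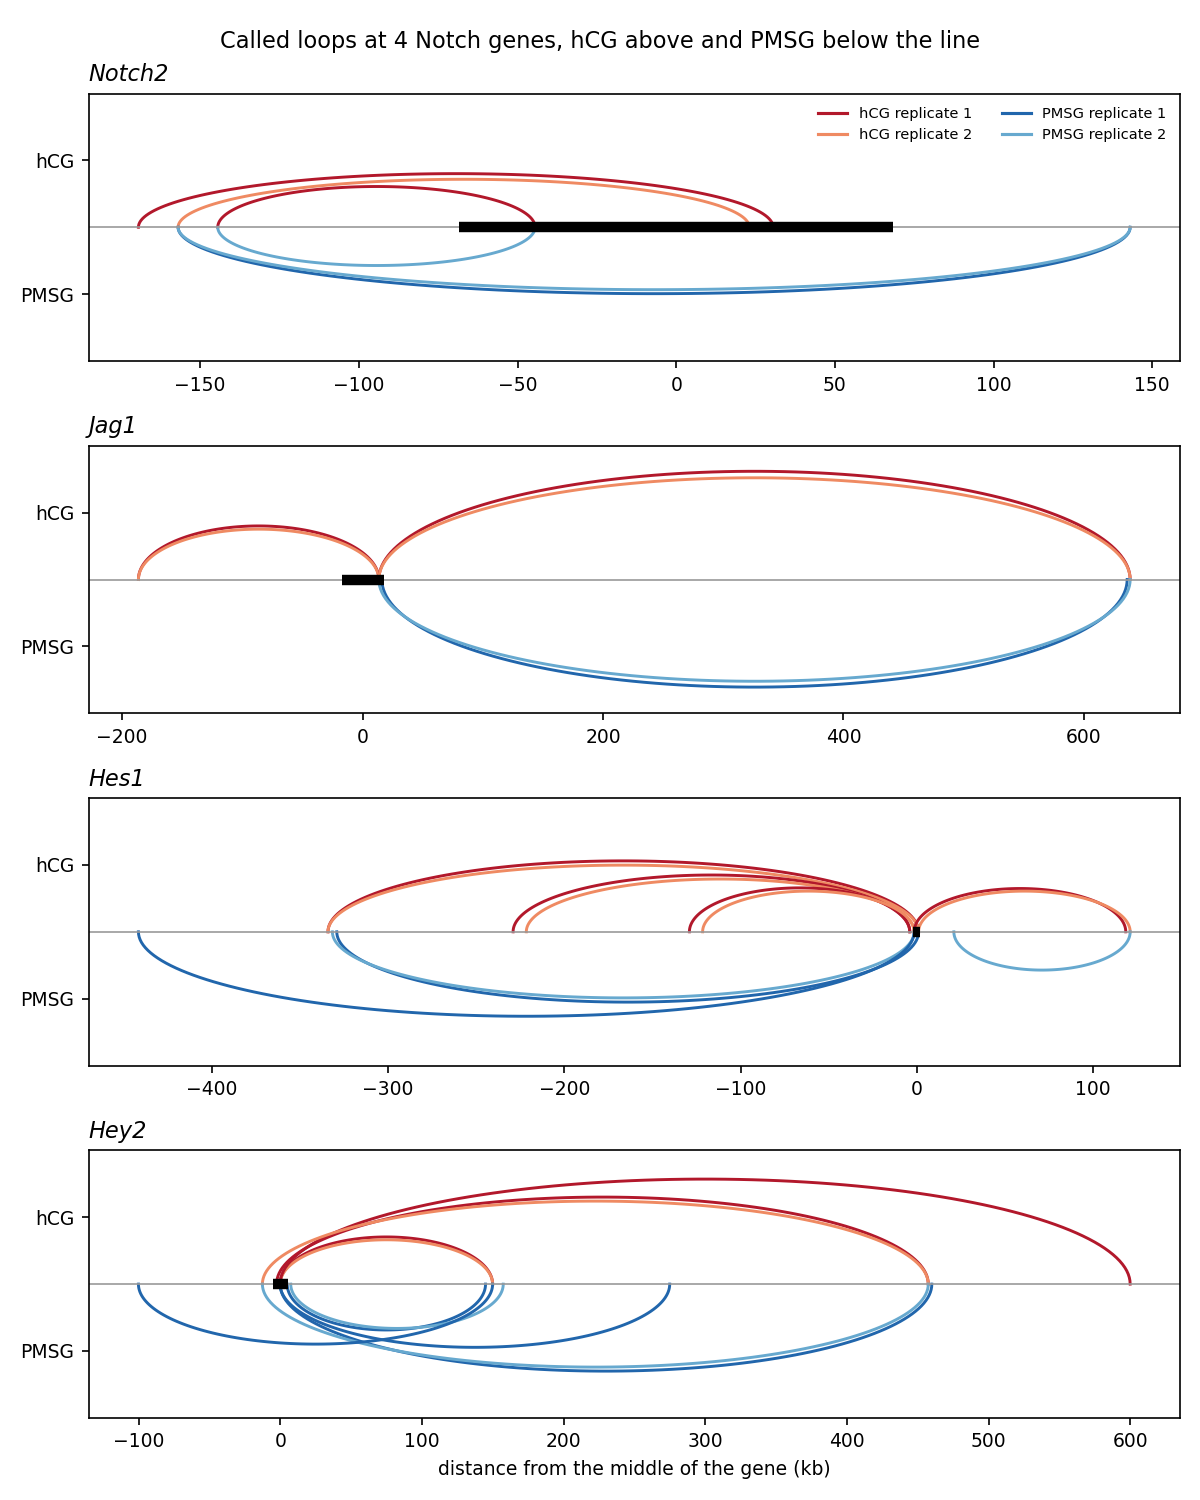
Loops called at Notch2, Jag1, Hes1 and Hey2, drawn as arcs between anchor midpoints against the distance from the middle of the gene (kb, in the direction of rising coordinate). Arcs above the line are hCG and below it PMSG, 1 colour for each library, arc height follows span (replicate 2 drawn slightly flatter) and carries no contact count, and the black bar is the gene. Notch2, Jag1 and Hes1 have arcs in both hCG libraries with no counterpart below, and the arcs of about 620 kb at Jag1, 330 kb at Hes1 and 460 kb at Hey2 appear on both sides.

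The HEY genes, which encode repressors related to HES1, had no gained or lost loop. Hey2, on chromosome 10 from 30832359 to 30842783, had the loop that ranked highest among those at the 9 genes, of 460 to 470 kb to an anchor 18.3 kb from Hddc2. It had 49 and 61 contacts in the hCG libraries against 6.27 and 6.09 expected, and 34 and 60 contacts in the PMSG libraries against 3.95 and 6.85 expected. The 2 groups overlapped in enrichment, at 7.82 and 10.01 times the expectation in hCG and 8.62 and 8.76 times in PMSG. Averaged over its 4 calls, the loop stood at the 94.8th percentile of calls of its bin size and library. A second common loop, of 140 to 150 kb, was called in 25 kb bins in both hCG libraries, with 88 and 100 contacts against 35.3 and 38.1 expected. In PMSG replicates 1 and 2 it was called in bins of 5 and 10 kb, with 21 against 4.14 and 39 against 8.80. The remaining 3 loops at Hey2 were each called in 1 library. The one in hCG replicate 1 reached Tpd52l1 over 600 kb, with 60 contacts against 20.4 expected. In PMSG replicate 1, a loop of 275 kb had 93 contacts against 44.6 expected, and one of 250 kb that enclosed the gene had 84 against 29.6.

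Hey1, on chromosome 3 from 8663359 to 8667038, was enclosed by a pair of common loops, of about 320 and 470 kb, that start at the same left anchor. The longer one was called at the same 10 kb pixel in all 4 libraries, where the hCG libraries had 21 and 21 contacts against 3.34 and 4.42 expected, and the PMSG libraries 30 and 21 against 5.82 and 3.34. The shorter one had 40 and 16 contacts in the hCG libraries against 5.11 and 2.01 expected, and 17 and 31 in the PMSG libraries against 3.75 and 4.96 expected. A loop from Hey1 itself to the region of Mrps28 and Tpd52 was called in 3 libraries, with 23 and 29 contacts in the hCG libraries against 7.62 and 7.12 expected, and with 36 against 12.8 in PMSG replicate 1. It was absent from the list of PMSG replicate 2, the shortest list. A loop of 100 kb from Hey1 was called in hCG replicate 1 alone, with 108 contacts against 44.7 expected.

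Heyl, on chromosome 4 from 123233556 to 123249870, had a short common loop of 35 to 40 kb between one flank of the gene and an anchor inside Nt5c1a, a nucleotidase gene. It had 32 and 48 contacts in the hCG libraries against 4.29 and 5.42 expected, and 48 and 31 contacts in the PMSG libraries against 10.9 and 4.06 expected. The enrichment was 7.46 and 8.86 times in hCG and 4.41 and 7.64 times in PMSG, so the groups overlapped and PMSG replicate 1, the deepest library, stood lowest. A loop of 100 kb was called in 1 library of each group, with 33 contacts against 7.86 expected in hCG replicate 1 (10 kb bins) and 21 against 3.84 in PMSG replicate 1 (5 kb bins).

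**Figure D4:**
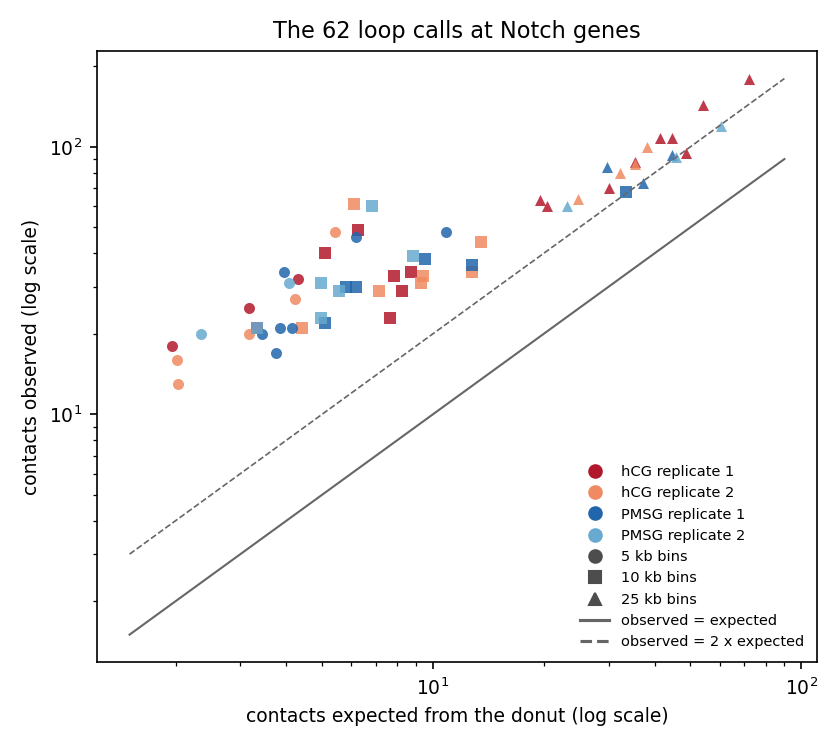
Observed contacts against contacts expected from the donut neighbourhood, both on log scales, for the 62 calls at Notch genes. Colour gives the library, marker shape the bin size, the solid line observed equal to expected and the dashed line 2 times the expected. The calls lie between 1.96 and 10.01 times the expectation, and the largest expected values belong to calls in 25 kb bins.

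Loop strength was then compared where the same pixel had been called in all 4 lists, which held for 435 pixels and for 1 at a Notch gene, the long loop around Hey1. With the donut expectation as offset, its log2 ratio of hCG over PMSG was -0.04 (SE 0.254, 95% interval -0.602 to 0.522), with an adjusted p of 0.989 by edgeR's quasi-likelihood test over the 435 pixels. A ratio anywhere in that interval, in either direction, could not be told apart from no change. The interval is not a limit of detection, since calls were made on adjusted p. Of the 435 pixels, edgeR called 0 (0%), while 29 had an unadjusted p under 0.05, and DESeq2 called 0. Their median log2 ratio was 0.12.

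A wider fit, chosen after the data had been seen, took the 1295 loops called once in every library in the same bin size, at pixels up to 20 kb apart. It held 3 loops at Notch genes and edgeR called 0 (0%) of the 1295, with 88 at an unadjusted p under 0.05 and a median log2 ratio of 0.15. Heyl had a log2 ratio of 0.63 (SE 0.251, 95% interval 0.0984 to 1.15, unadjusted p = 0.0226, adjusted p = 0.606 by edgeR's quasi-likelihood test). Both hCG values were above 1 of the 2 PMSG values, and 1 of them was below the other. Notch1 had a log2 ratio of -0.14 (SE 0.251, 95% interval -0.662 to 0.389, adjusted p = 0.951 by edgeR). The loop around Hey1 again had -0.04 (adjusted p = 0.992 by edgeR).

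The span of the loops at Notch genes depends in part on the rule, which counts a loop that encloses a gene only when it is shorter than 500 kb. Their median span was 200 and 190 kb in the hCG libraries, against 287.5 and 300.0 kb in the PMSG libraries. The group means were 195 ± 7.07 kb in hCG and 294 ± 8.84 kb in PMSG (SD, n = 2 each), a difference of -98.75 kb. By the same rule at all genes, each loop counted once for each gene it lay at, the medians were 160 and 175 kb in the hCG libraries, against 180 and 190 kb in the PMSG libraries. Without the loops that only enclosed a gene, the medians at Notch genes were 175 and 180 kb in the hCG libraries, against 267.5 and 135 kb in the PMSG libraries, a difference of -23.75 kb. The groups then overlapped, on 16 and 13 calls in the hCG libraries, against 12 and 8 in the PMSG libraries. At all genes the anchor loops had medians of 135 and 150 kb in the hCG libraries, against 155 and 165 kb in the PMSG libraries. Relative to those, the Notch genes had longer anchor loops in 3 libraries and shorter ones in PMSG replicate 2.

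**Figure D5:**
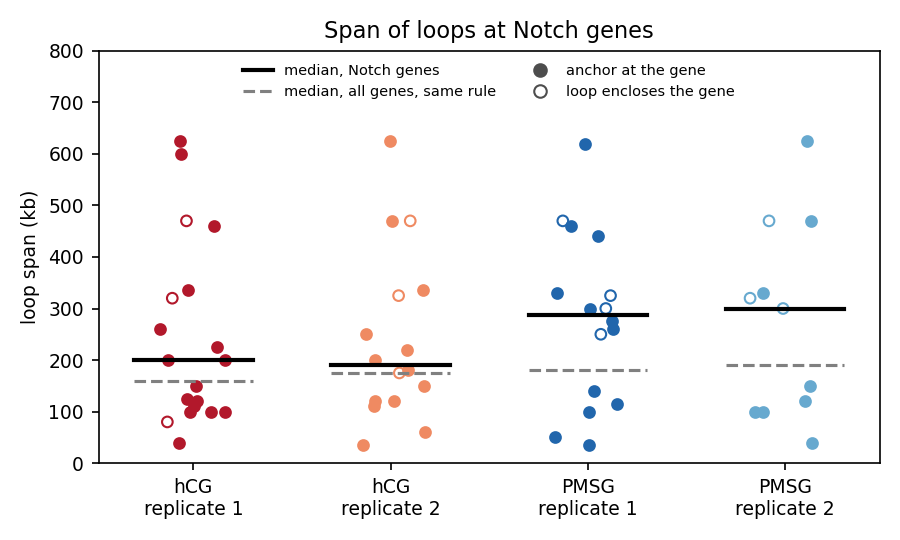
Span in kb of each loop at the Notch genes in the 4 libraries, with filled circles for an anchor at the gene and open circles for a loop that encloses it. Solid bars are medians at Notch genes (200 and 190 kb in hCG, 287.5 and 300.0 kb in PMSG) and dashed bars the medians at all genes by the same rule (160 and 175 kb in hCG, 180 and 190 kb in PMSG).

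The rest of the pathway was counted with the same rule on a list of 49 genes: other receptors and ligands, enzymes that modify or cut the receptor, the nuclear complex and its modulators. Of these, 43 had a loop, beside 68% of all genes, 4 a gained one (Dtx4, Furin, Maml3 and Poglut1) and 2 a lost one (Adam10 and Fbxw7), or 9.30% and 4.65% of the 43, near the 9.79% and 7.93% of all genes with a loop. The whole list had 7.44 and 8.44 loops per 1000 in the hCG libraries, against 7.47 and 7.50 in the PMSG libraries.

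Maml3 encodes a Mastermind coactivator of the Notch complex in the nucleus. It had 5 loops in each hCG library and 3 in each PMSG library, 2 of them gained. One of 60 kb had 45 and 48 contacts after hCG against 13.2 and 16.2 expected, and one of 540 kb had 16 in a 5 kb bin and 29 in a 10 kb bin against 1.83 and 7.39. Poglut1, which encodes the enzyme that adds O-glucose to Notch, had 2 loops in each hCG library and 0 in each PMSG library. Its gained loop, of 190 to 200 kb, had 34 contacts against 6.40 expected in hCG replicate 1 (10 kb bins) and 110 against 45.2 in hCG replicate 2 (25 kb bins).

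Furin encodes a protease that cuts the Notch precursor. It had 3 loops in each hCG library, against 2 and 1 in the PMSG libraries. Both of its gained loops were short, at 100 kb with 129 and 147 contacts against 58.5 and 76.8 expected, and at 35 to 40 kb with 15 and 20 against 2.98 and 5.35. The gained loop of Dtx4, a Deltex ubiquitin ligase gene, reached within 10 kb of that gene in hCG replicate 1 only, with 31 contacts against 8.82 expected.

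Adam10, which encodes the metalloprotease that makes the activating cut in Notch, had a lost loop of 400 kb with 32 and 23 contacts in the PMSG libraries against 9.01 and 5.61 expected. It had 0 and 1 loops in the hCG libraries, against 2 in each PMSG library. Of all genes with a loop, 7.63% had more loops in both hCG libraries than in either PMSG library, and 5.86% had fewer. Fbxw7 encodes the ubiquitin ligase part that marks active Notch for breakdown. It had a lost loop of 975 to 1000 kb with 42 contacts in a 25 kb bin and 17 in a 10 kb bin of the PMSG libraries, against 13.1 and 2.53 expected. RBPJ itself, the DNA-binding protein of the pathway, had 2 and 4 loops in the hCG libraries, against 2 in each PMSG library, and none of them was gained or lost. The ligand gene Dll4 had 1 and 2 loops in the hCG libraries and 2 in each PMSG library, and the receptor gene Notch4 had 1 in each hCG library, against 2 and 1. No loop lay at Dll1, Dlk1, Psenen, Hes6, Snw1 or Tle3.

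Several Notch genes shared their loops with neighbours, so that a loop counted for one gene need not be particular to it. By the Jaccard index over distinct loops, all 3 loops of Notch2 were also those of Sec22b (index 1), and both of Notch3 were those of Ephx3 (index 1). Hey1 shared its 4 loops with the adjacent predicted gene LOC115489673 (index 1) and 3 of them with Mrps28 (0.75), and Heyl shared both of its loops with Nt5c1a (0.67). The highest index was 0.11 for Hes1 with Opa1, 0.13 for Hey2 with Tpd52l1 and 0.14 for Jag1 with Slx4ip. Of the 5 loops of Hes1, 1 was also at Opa1, and of the 5 of Hey2, 1 was at Tpd52l1. Of the 2 loops of Jag1, 1, the gained one, was also among the 6 loops of Slx4ip.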

How the data were processed

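Micro-C loops were analysed in 2 hCG and 2 PMSG libraries, grouped by title. The submitters' processing notes name mm10, BWA and Juicer, and per the file headers the lists came from juicer_tools 1.22.01, 1 merged list per sample, with calls in 5, 10 and 25 kb bins. For the caller's settings, nothing is given in the sources used here. Per the labels' protocols each sample had 2 to 3 technical replicates, which the lists do not keep apart. Each deposited list holds the observed contact count of a pixel, not normalized, the expected contact signal from local neighbourhoods on the same scale, and an FDR, deposited as a q-value, for each neighbourhood. The deposited score of collapsed pixels was not used.

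Positions are in mm10, counted from 1. Genes were the 21627 protein-coding RefSeq genes of GRCm38.p6 on chromosomes 1 to 19 and X. The table has no exons, so anchors were not assigned to exons or introns. Calls from different lists were joined if each pair of anchor midpoints was at most 20 kb apart, and connected calls made up a distinct loop. Of these, 3.52% were wider than 20 kb. A distinct loop lay at a gene if 1 of its calls met the rule. Contacts at shared pixels were fitted in edgeR 4.0.16 (quasi-likelihood test, log donut expectation as offset, Benjamini-Hochberg over all pixels, threshold 0.05) in R 4.3.3, and DESeq2 1.42.0 served as the other tool. In simulated counts for the 435 pixels, 82.5% of 200 pixels changed 2-fold were called and 1.2% of calls were false. So large a share of changed pixels eases the adjusted threshold. The rate therefore does not carry over to data in which few pixels change. Other steps used Python 3.11.15.

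Members and gene lists were chosen with earlier results of these data known. Named genes were the 9 members, genes with an end within 2.5 kb of a partner anchor, other pathway genes at gained or lost loops, and the 2 genes sharing most of a member's distinct loops. Not every gene that this rule names is reported here. Genes that only lie near or around a partner anchor (Egfl7, Btbd3, Hddc2, Nt5c1a), Rbpj, Dll4, Notch4 and the genes without a loop were named after their values were seen. The numbers of replicates 1 and 2 pair no samples by the labels. The correlation of deviations at the 435 pixels was -0.0157, so the fit has no replicate block. Contacts can include PCR copies, so intervals cover counting error only.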

Additional observations from a re-analysis of the deposited data

How the results depend on the processing

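The number of gained loops at Notch genes, 5, was 4 to 7 in 11 of 13 alternatives. Among these were the 4 settings that each left out a library, with 5 to 7. Leaving out a library drops a condition of the gained and lost classes. Those counts could thus stay or rise but hardly fall, and they do not test stability. The number of gained loops was 3 in lists of equal length and 1 in 5 and 10 kb bins only. A like count did not mean the same loops. With matching within 10 kb the 4 gained loops lay at Hes1 and Jag1 only. By anchor overlap the 6 gained loops lay at Hes1, Jag1, Notch1 and Notch2, and none at Jag2. The single lost loop became 0 with anchor loops only and 2 in 5 and 10 kb bins only, with matching within 10 kb and by anchor overlap. Without a library it ranged from 1 to 6, with 6 without PMSG replicate 2, when the deepest list alone stands for PMSG. The difference in loops per 1000 was -0.0108 in 5 and 10 kb bins only, and 0.211 to 0.674 without a library. The difference in median span was -52.5 kb with anchors within 20 kb, -23.75 kb with anchor loops only, -111 kb at FDR 0.01, -110.0 kb in 5 and 10 kb bins only, and -105 to -92.5 kb without a library. The log2 ratio at the Hey1 pixel was called in none of 10 fits with a test, with adjusted p from 0.81 to 0.999 (edgeR and DESeq2). Without a library it ranged from -0.23 to 0.17, positive without hCG replicate 2 and without PMSG replicate 2. With the replicate number as a replicate block it was -0.033 (adjusted p = 0.988, edgeR), with 0 calls in all. The cause of these changes was not tested. Single pixels with 13 to 180 contacts limit the precision of each ratio.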
